A study of Mus musculus with 64 samples.

Results

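The genes of the MHC class I presentation pathway, and Cd274, the gene of the checkpoint ligand PD-L1, were followed in RNA sequencing of mouse pancreatic ductal adenocarcinoma (PDA) cells. The 10 genes were chosen by symbol and comprise the class I heavy chains H2-K1 and H2-D1, the light chain B2m, the peptide transporter subunits Tap1 and Tap2, the loading chaperone Tapbp, the immunoproteasome subunits Psmb8 and Psmb9, the transactivator Nlrc5, and Cd274. All 10 were found among the 39017 genes of the count table. The cells were 8 lines: 7 PDA clones that the study subcloned from a KPC mouse tumor (Trp53+/R172H; Pdx1-Cre), in which Pdx1 drives Cre in pancreatic epithelium, and the KPC1 line, whose origin is not given in the sources used here. Every line is labeled as murine pancreatic tumor cells of C57BL/6 mixed background, and GFP specific to the tumor cells served to sort them. Clones E, H and V form the study's metabolic group 1 and clones K, M, N and T its group 2, and KPC1 belongs to neither. The 64 libraries fall into 16 groups of 4: every line grown alone (mono-culture) and every line grown for 48 h with fibroblasts (coculture), its tumor cells then being recovered by fluorescence-activated sorting on GFP. Sorting of the mono-cultured cells is not stated, nor the source of the fibroblasts, nor whether the 4 libraries of a group were separate cultures, so p-values within a line measure the spread between these libraries, which may be technical.

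MHC class I molecules display peptides from inside the cell to CD8 T cells, and a cell that loses them is hidden from those T cells but becomes a target for natural killer cells. Proteasomes cut cytosolic proteins into peptides, with Psmb8 and Psmb9 replacing catalytic subunits in the immunoproteasome, the TAP transporter (Tap1 with Tap2) carries the peptides into the endoplasmic reticulum, and tapasin (Tapbp) bridges the transporter to a heavy chain waiting with B2m. Interferons raise most of these genes together, partly through Nlrc5, a transactivator that binds class I promoters, and interferon also raises Cd274, whose product engages PD-1 on T cells.

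7 of the 10 genes lie on mouse chromosome 17 in the annotation used (GENCODE M21, GRCm38), in or beside the MHC, and Tap1, Tap2, Psmb8 and Psmb9 stand within 34.3 kb of each other. The start sites of Tap1 and Psmb9, which point away from each other, are 226 bases apart in RefSeq (GRCm38.p6). B2m is on chromosome 2, Nlrc5 on chromosome 8 and Cd274 on chromosome 19. Over lines and cultures, the levels of H2-K1 and H2-D1 went together and those of B2m and Cd274 did not follow them. In the response to coculture, B2m rose most in H and V, as the heavy chains did. The stretches of 4 promoters are shown because of the difference in level. They are read 5′ to 3′ on the gene's own strand, from the RefSeq table of promoters on GRCm38.p6, and capitals mark the motifs AANNGAAA (the core bound by interferon regulatory factors), TGACG (the X2 box of class I promoters), CCAAT (the Y box) and GGGGATTCC (a κB site), searched on both strands in the 200 bases before the start site. No match overlaps another in these stretches.
H2-K1, chr17:34000349-34000468, minus strand: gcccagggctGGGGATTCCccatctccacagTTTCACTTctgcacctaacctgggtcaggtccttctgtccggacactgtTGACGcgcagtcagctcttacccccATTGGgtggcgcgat
H2-D1, chr17:35262913-35263032, plus strand: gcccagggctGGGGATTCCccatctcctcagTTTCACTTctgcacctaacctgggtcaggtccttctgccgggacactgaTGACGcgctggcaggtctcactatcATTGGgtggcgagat
B2m, chr2:122147540-122147648, plus strand: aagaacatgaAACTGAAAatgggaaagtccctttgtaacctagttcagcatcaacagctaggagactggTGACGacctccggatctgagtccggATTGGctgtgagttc
Cd274, chr19:29367253-29367280, plus strand: cgaagcctagTTTCGTTTtttcttaaac

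The stretches of H2-K1 and H2-D1 had the same base at 108 of 120 positions (90%) and held the 4 motifs in the same order. The H2-D1 stretch was cut to match that order: a further Y box, 53 to 49 bases before its start site, was left out. Another H2-K1 window, not shown, held 2 Y boxes. The equal order and length of the stretches were thus set in part by how they were cut. The B2m stretch held the interferon regulatory factor core, the X2 box and the Y box. It had no match to the κB letters, the one form of the κB site searched. Other forms of that site were not searched, so whether B2m holds one was not tested. In the 200 bases before the Cd274 start site the interferon regulatory factor core was the one match. Of the 32851 promoter windows in the RefSeq table, 17% held the interferon regulatory factor core, 15.7% the X2 letters, 29.3% the Y box and 0.155% the κB letters, and 0.0335% held both the κB letters and the interferon regulatory factor core. Another motif, TTCNNNGAA (a STAT site), was found in 5.49% of windows and, among the genes here, before the start site of Psmb8 alone. Windows were on hand for 8 of the 10 genes, all but Tap2 and Nlrc5. A match of letters is a description of the sequence and was not tested as a binding site.

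Library totals ran from 11178721 to 21333683 counts (median 15648009.5), so that 3 counts over the 4 libraries of a group, taken as the floor, were at most 0.0588 CPM (counts scaled to a common library size by TMM, as edgeR's cpm gives them). Each of the 64 libraries was most highly correlated with a library of its own line and culture. Of 8 epithelial markers, Krt8 and Krt18 were at 314 CPM or more in every group, while Krt7 and Cdh1 were as low as 0.625 and 0.784 CPM in some groups and Epcam stayed at or under 0.37 CPM in every group. Krt19 (log2 change -0.70, edgeR adjusted p = 0.00254) and Krt8 (-0.51, 0.0828) were lower in coculture across lines and Sox9 (0.27, 0.0266) higher. The sorted coculture cells carried fibroblast transcripts: 11 of 12 fibroblast markers were higher in coculture and the other, Lum, was not tested, with the summed level of the 12 between 48.8 and 257 CPM in mono-culture libraries and between 251 and 1949 CPM in coculture libraries. Thy1 and Lum were at 0 in all 32 mono-culture libraries. Of 8 leukocyte markers, Cd3e and Tyrobp were at 0 in all 64 libraries, and Cd68 was the one tested and was higher in coculture. In bulk RNA, fewer cells expressing a gene and less RNA per cell cannot be told apart, and how much of a rise in coculture came from fibroblast RNA was not tested.

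Across the 8 lines, coculture came with more RNA for 6 of the 9 genes that could be tested and with less for none. Tap1 (2.17, SE 0.65, adjusted p = 0.0229) and Nlrc5 (2.09, SE 0.30, adjusted p = 0.00145) changed most, Psmb8 rose by 1.69, SE 0.71, adjusted p = 0.0747, H2-D1 by 0.66, SE 0.18, adjusted p = 0.0149, H2-K1 by 0.58, SE 0.17, adjusted p = 0.0207 and B2m by 0.30, SE 0.12, adjusted p = 0.0649. These are log2 fold changes of coculture over mono-culture with SE and edgeR's adjusted p, from counts summed over the 4 libraries of each line and culture and with the line as covariate. Tapbp (-0.33, SE 0.16, adjusted p = 0.113), Cd274 (-0.25, SE 0.20, adjusted p = 0.338) and Tap2 (-0.09, SE 0.34, adjusted p = 0.841) did not pass the threshold of 0.1. Of the 14478 genes in that test, 27.1% were called higher and 27.4% lower, and their median change was -0.000892, against 0.58 for the 9 genes. Psmb9 failed the filter on low counts, having reads in 38 of 64 libraries and 10 counts or more in 2 of them. Psmb8 reached 10 counts in 14 libraries, of H, M and N, and Nlrc5 in 9, all of them coculture libraries. Nlrc5 was thus tested because of the culture in which it was high, and its rise is no independent support for the count of 6. Psmb8 also needed coculture to be tested across lines. In mono-culture its summed reads were 55 in M, 153 in N and 7 or fewer elsewhere. In coculture they were 12 to 166 outside V and K. The rise of Psmb8 is therefore no independent support for that count either.

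The calls of B2m and Psmb8 across lines depended on single lines. B2m was no longer called without H, V, N, T or KPC1 (adjusted p between 0.116 and 0.145), Psmb8 without E, H, V, K, T or KPC1 (0.106 to 0.15), and the number of genes called fell from 6 to 3 without V or without N, where Nlrc5 no longer passed the filter. Psmb8 was not tested without M or N, so it was called in no fit that left out a line. For the coculture response across lines, Psmb8 had a larger value by DESeq2 (2.76, adjusted p = 0.00165). H2-K1, H2-D1 and Tap1 stayed called without any one line or replicate number, whereas Psmb8 and Nlrc5 were not tested in any fit that left out a replicate number.

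Within lines, 34 of the 80 pairs of a gene and a line were called higher in coculture and 8 lower, while 30 were not called and the 8 of Psmb9 were not tested. Clone V had 7 genes higher and 1 lower of 9 tested, where 30% of all 14134 genes were higher and 31.4% lower. Clone H had 6 higher and none lower, against 21.4% and 22.5% of all genes. In clone K, 5 were higher and none lower, where the background was small, 12.4% and 7.96%. KPC1 had 4 higher and none lower (background 20.1% and 19%), and clone N 3 and none (20% and 17.3%). Clone T combined 5 higher with 3 lower (31.5% and 30.6%), clone E 3 with 3 (32.1% and 29.2%), and clone M 1 with 1 (21.5% and 17.2%). The share called higher, Nlrc5 included, was above the line's background in H, V, K, T and KPC1, closer to it in N and E and below it in M. Nlrc5, tested because of the culture in which it was high, is among the higher calls in H, V, K and T. It is the only higher call in M, and in none of these lines is it independent support. The sheet numbers at the end of the sample descriptions run from 1 to 43 and again from 1 to 21, taken here, as an inference, for sheets A and B. With the sheet as a covariate the counts were again 34 and 8, and on sheet A alone, which holds no mono-culture library of clone K, they were 22 and 6.

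**Figure D1:**
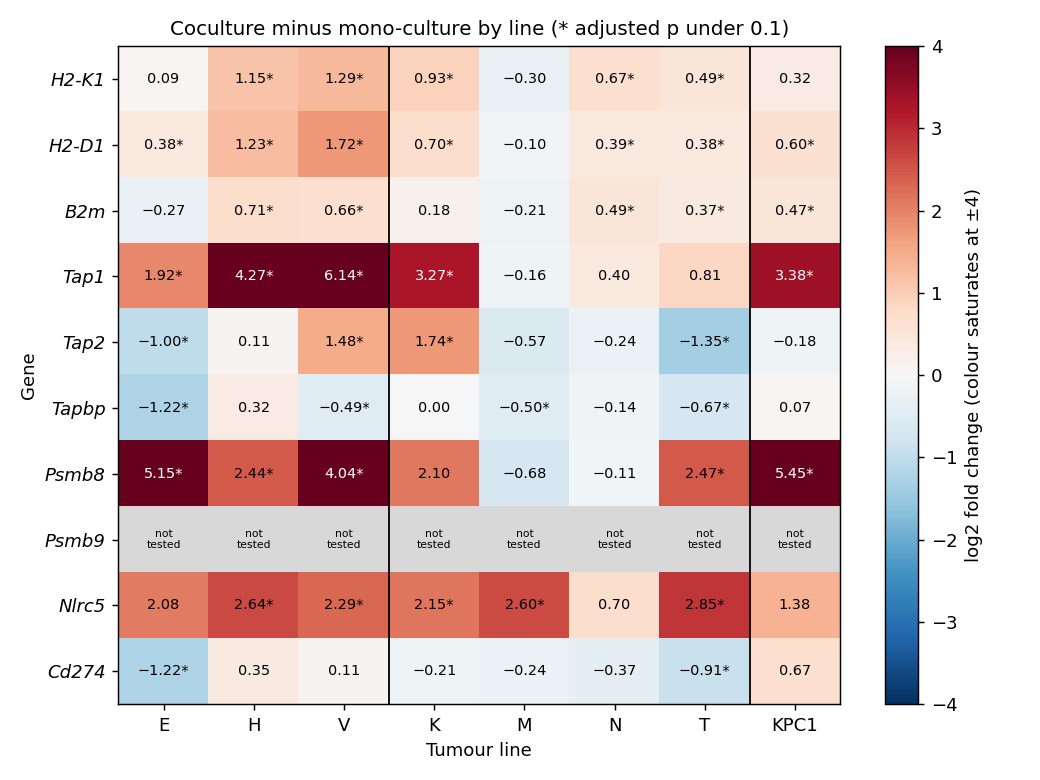
Change in coculture for each gene (vertical axis) in each tumor line (horizontal axis), as the log2 fold change of coculture over mono-culture from the fit of 64 libraries (color, saturating at 4 either way, with the value printed). Asterisks mark an edgeR adjusted p under 0.1, and Psmb9 was not tested; V and H have the largest rises of H2-K1 and H2-D1, and clone M holds 1 call higher and 1 lower.

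The classical heavy chains H2-K1 and H2-D1, which present the peptide, were held at very different levels by clones of the same tumor. In mono-culture the 4 libraries of clone K held 4.47, 7.51, 3.96 and 9.81 CPM of H2-K1, those of clone V 14.1, 12.5, 11.2 and 9.36, and those of KPC1 118, 123, 84.2 and 113. The K and V libraries lay below every library of the other 6 lines. From the highest mean to the lowest, the order was KPC1 (109 ± 17.3 CPM, mean ± SD, n = 4 libraries), M (91.3 ± 3.51), N (79.1 ± 6.02), T (73.8 ± 17), E (65.4 ± 10.4), H (40.9 ± 1.75), V (11.8 ± 2.02) and K (6.44 ± 2.74). E differed from H, H from V and V from K (edgeR adjusted p = 0.00145, 6.18e-11 and 0.000364), whereas the 4 steps from KPC1 down to E did not pass. Between lines further apart in the order, KPC1 was above N, T and E (0.028, 0.00572 and 0.000389) and M above E (0.0238). H2-D1 ran N, M, T, KPC1, H, E, V and K, from 142 ± 13.6 to 28.1 ± 7.97 CPM, with steps past the threshold from KPC1 to H, H to E and E to V. Per length, the authors' RPKM averaged 21.6 for H2-K1 and 33.8 for H2-D1 over the 8 mono-cultured lines.

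In coculture the heavy chains gained most in clones V and H. The V libraries rose to 25.1, 30.9, 26.4 and 33.2 CPM of H2-K1 (1.29, SE 0.19, adjusted p = 1.82e-07) and to 94.5, 106, 107 and 105 CPM of H2-D1, from 34.5, 36, 27.8 and 26.6 in mono-culture (1.72, SE 0.15, adjusted p = 4.87e-13). For both genes, every V library in coculture was above every V library in mono-culture. Clone H moved the same way, from 43, 41.2, 40.7 and 38.8 to 64.6, 92.4, 88 and 117 CPM of H2-K1 (1.15, SE 0.18, adjusted p = 2.95e-06) and from 92, 95.8, 96.1 and 83.4 to 134, 222, 240.5 and 262 CPM of H2-D1 (1.23, SE 0.15, adjusted p = 1.03e-08). Clone H thereby passed from a middle place for H2-D1 in mono-culture to the top in coculture, at 215 ± 56.5 CPM. Clone K rose as well (0.93, SE 0.21, adjusted p = 0.000969 for H2-K1, 0.70, SE 0.15, adjusted p = 0.000673 for H2-D1), with overlapping libraries, and at 12.2 ± 3.61 and 45.5 ± 9.54 CPM was still the lowest line in coculture for both genes.

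The other lines changed less. H2-K1 rose in N (0.67, SE 0.18, adjusted p = 0.00359) and T (0.49, SE 0.18, adjusted p = 0.0179), and the values were 0.32, SE 0.18, adjusted p = 0.167 in KPC1, 0.09, SE 0.18, adjusted p = 0.706 in E and -0.30, SE 0.18, adjusted p = 0.206 in M, none of which passed. H2-D1 rose in 7 of 8 lines, the exception being M, where the mono-culture libraries held 133, 125, 143 and 111 CPM and the coculture libraries 109, 108, 133 and 128 (-0.10, SE 0.15, adjusted p = 0.657). The response differed between lines for H2-K1 (edgeR adjusted p = 4.67e-06) and for H2-D1 (7.24e-09). Some of the small rises were not stable: without the libraries numbered 2, H2-K1 in T (adjusted p = 0.153) and H2-D1 in E, N and T (0.168, 0.116 and 0.188) were not called, and H2-D1 in E and N also lost the call without those numbered 3 (0.126 and 0.166). Without the libraries numbered 4, H2-D1 in N was not called either (0.209). H2-K1 and H2-D1 are close paralogs that share long identical stretches, and how reads that fit both were counted is not given in the sources used here, so the split of reads between them is uncertain.

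**Figure D2:**
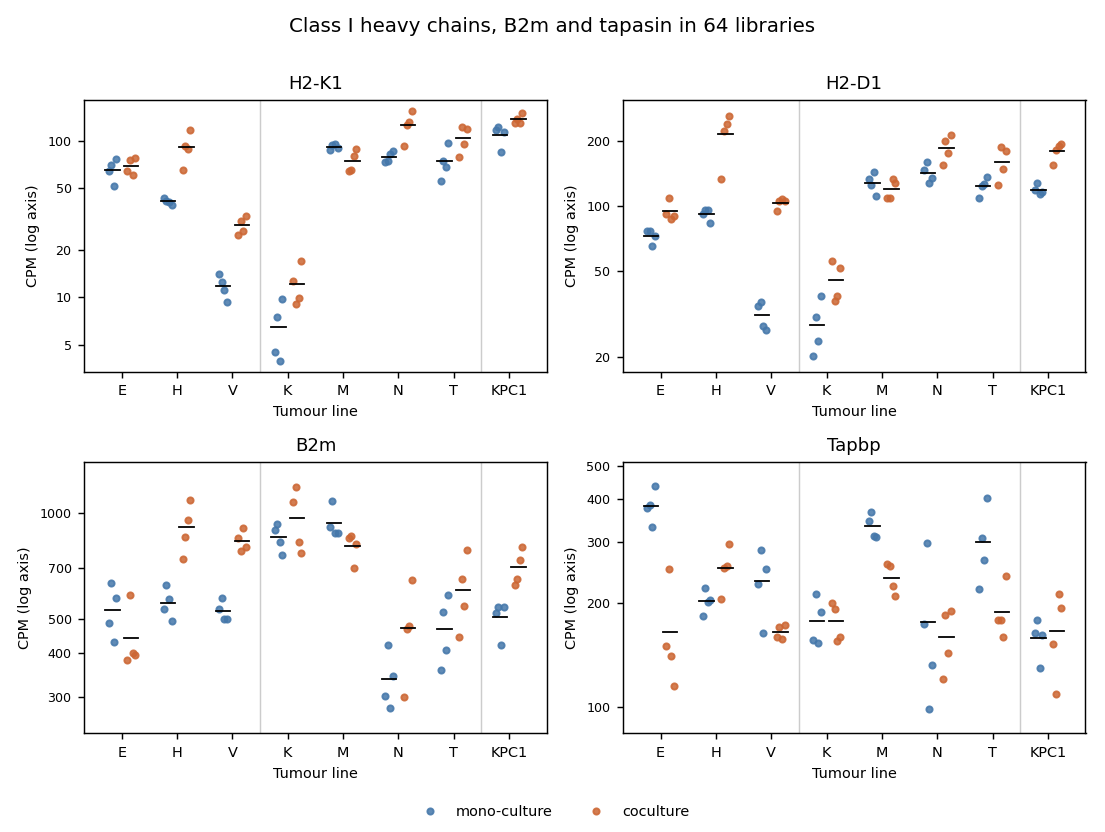
CPM (vertical, log axis) of H2-K1, H2-D1, B2m and Tapbp in the 4 libraries of each line (horizontal) and culture, blue for mono-culture and orange for coculture, with the mean as a black bar; gray lines part group 1, group 2 and KPC1. H2-K1 is lowest in clones V and K in both cultures, all coculture points of H and V lie above their mono-culture points for H2-K1, H2-D1 and B2m, and Tapbp of clone E falls.

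B2m, the light chain that every class I molecule needs, was the most abundant of the 10 genes per length, at an average of 640.5 RPKM over the mono-cultured lines. Its levels in mono-culture did not follow those of the heavy chains. Clone K, the lowest line for both heavy chains, held 893, 932, 829 and 759 CPM of B2m in mono-culture, and clone N, the highest for H2-D1, held 302, 423, 279 and 344. No K library was as low as any N library. The order was M, K, H, E, V, KPC1, T and N, from 936 ± 96 to 337 ± 63.5 CPM, a 2.78-fold range against 17-fold for H2-K1, and of the 7 steps those from K to H and from T to N passed (edgeR adjusted p = 0.00127 and 0.0199). In coculture B2m rose in 5 lines, most in H, from 535, 624, 572 and 493 to 742, 854, 956 and 1086 CPM (0.71, SE 0.17, adjusted p = 0.000655), and in V, from 534, 572, 502 and 499.8 to 852, 779, 909 and 799 (0.66, SE 0.17, adjusted p = 0.000653). Those groups did not overlap. The rises in N (0.49, SE 0.17, adjusted p = 0.0215), T (0.37, SE 0.17, adjusted p = 0.0524) and KPC1 (0.47, SE 0.17, adjusted p = 0.0251) were smaller, and each lost its call without the libraries numbered 3 (adjusted p = 0.175, 0.168 and 0.192). Those in N and T were also lost without the libraries numbered 4 (0.211 and 0.107). E (-0.27, SE 0.17, adjusted p = 0.163), M (-0.21, SE 0.17, adjusted p = 0.337) and K (0.18, SE 0.17, adjusted p = 0.537) did not pass, and the response differed between lines (adjusted p = 0.000571).

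Tap1, the transporter subunit whose start site lies beside that of Psmb9, was spread widely between lines and, with Nlrc5, had the largest responses across lines. In mono-culture clone N held 8.09, 7.56, 3.91 and 3.49 CPM and clone M 3, 2.63, 1.71 and 4.55. T followed at 0.526, 0.698, 0.904 and 1.17, and the other 5 lines stayed under 0.52 CPM in every library. The 4 mono-culture libraries of clone V had 1 Tap1 read between them. The steps from N to M, M to T and T to E passed (edgeR adjusted p = 0.0528, 0.00173 and 0.053), and those among the low lines did not. E, KPC1 and H, which are not neighbors of V in the order, were above V (0.0189, 0.0505 and 0.0764).

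In coculture Tap1 was read in every library, and it rose in E, H, V, K and KPC1. Clone H went from 0.378, 0.0833, 0.162 and 0.122 CPM to 1.21, 2.74, 5.55 and 5.72 (4.27, SE 0.61, adjusted p = 3.79e-07) and KPC1 from 0.126, 0.0648, 0.512 and 0.0584 to 3.13, 0.754, 2.1 and 2.28 (3.38, SE 0.63, adjusted p = 6.5e-05). The coculture libraries of clone V held 0.134, 0.81, 2.95 and 2.49 CPM, 107 reads against 1, a ratio of 108 with an exact 95% interval of 18.9 to 4290 for counting error only. Clone K held 0.13, 0, 0 and 0.209 CPM in mono-culture and 0.533, 0.557, 1.18 and 1.24 in coculture (3.27, SE 0.83, adjusted p = 0.00341), and clone E 0.231, 0.298, 0.161 and 0.371 and 0.987, 0.343, 1.4 and 1.29 (1.92, SE 0.64, adjusted p = 0.0102). In H, V, K and KPC1 no coculture library was as low as the highest mono-culture library. N (0.40, SE 0.41, adjusted p = 0.484), M (-0.16, SE 0.44, adjusted p = 0.819) and T (0.81, SE 0.52, adjusted p = 0.18), the lines with the most Tap1 in mono-culture, did not pass, and the response differed between lines (adjusted p = 4.72e-07). The calls in the 5 lines stood without any one replicate number. That in KPC1 was lost on sheet A alone (2.04, adjusted p = 0.134), and those in E and K were lost on log2(RPKM + 1) (limma adjusted p = 0.16 and 0.287), a scale on which values this low barely move.

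Low Tap1 and few fibroblast transcripts often stood in the same coculture library. In 6 of the 8 lines, H, V, K, M, N and KPC1, the coculture library with the smallest sum of the 12 fibroblast markers was also the one with the least Tap1. In clone V that library held 251 CPM of fibroblast markers and 0.134 CPM of Tap1, while those with 689.7, 726 and 1423 CPM of markers held 2.95, 0.81 and 2.49 CPM of Tap1. In KPC1 the library with 335 CPM of markers held 0.754 CPM of Tap1, and the other 3, with 801 to 1009 CPM of markers, held between 2.11 and 3.13. The same library was lowest in 4 lines for H2-K1, in 3 each for H2-D1, B2m and Tapbp, in 2 each for Psmb8 and Cd274, and in 1 each for Tap2, Psmb9 and Nlrc5. How often the library with the fewest fibroblast transcripts was the lowest over all genes was not counted. The 6 of 8 lines can therefore not be called particular to Tap1. The part of fibroblast RNA in the Tap1 response was not tested.

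Tap2, the partner subunit, was spread nearly as widely as Tap1 in mono-culture but did not rise with it. The order was N (18.1 ± 8.62 CPM), M (14.8 ± 2.13), T (9.68 ± 2.63), E (4.21 ± 1.41), H (3 ± 0.438), KPC1 (1.69 ± 0.543), K (0.481 ± 0.393) and V (0.232 ± 0.128), with the steps from M to T, T to E, H to KPC1 and KPC1 to K past the threshold. Clones K and V, at the bottom, rose in coculture (1.74, SE 0.47, adjusted p = 0.00616 and 1.48, SE 0.60, adjusted p = 0.033). Clone T fell, from 5.96, 11.7, 9.69 and 11.4 to 4.56, 3.2, 3.02 and 4.43 CPM (-1.35, SE 0.32, adjusted p = 0.000284), with no overlap, and so did clone E, from 3.47, 5.07, 2.63 and 5.7 to 1.84, 3.15, 1.47 and 1.86 (-1.002, SE 0.35, adjusted p = 0.0124). The directions therefore differed between lines (adjusted p of the difference 7.16e-05). The call in V was lost without the libraries numbered 4 (adjusted p = 0.227) and on sheet A alone (0.62, adjusted p = 0.556).

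Tapbp, tapasin, was abundant everywhere and fell in 4 lines. Clone E went from 379, 385, 332 and 436 to 151, 252, 140.3 and 115 CPM (-1.22, SE 0.21, adjusted p = 4.11e-06), and clone T from 219, 309, 266 and 404 to 178, 179, 159.6 and 239 (-0.67, SE 0.21, adjusted p = 0.00654). In E the groups did not overlap, and in T they did. V (-0.49, SE 0.21, adjusted p = 0.0455) and M (-0.50, SE 0.21, adjusted p = 0.0669) fell less, and each of these calls was lost in 3 of the 4 fits that leave out a replicate number and without a filter on low counts (adjusted p = 0.112 and 0.136). H (0.32, SE 0.21, adjusted p = 0.24), KPC1 (0.07, SE 0.21, adjusted p = 0.826), N (-0.14, SE 0.21, adjusted p = 0.651) and K (-0.004, SE 0.21, adjusted p = 0.999) did not pass. In mono-culture no 2 neighbors in the order E, M, T, V, H, K, N and KPC1 differed, although the 8 lines tested as a set did (adjusted p = 7.11e-08). In E, T and V the heavy chain H2-D1 rose while tapasin fell.

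Psmb8 and Psmb9, the inducible catalytic subunits of the immunoproteasome, were close to absent from most mono-cultured lines. Psmb8 was read in all 4 mono-culture libraries of N (2.4, 3.71, 2.2 and 3.14 CPM) and M (0.647, 0.642, 0.459 and 1.64), and in none of those of E, V and KPC1. N differed from M and M from H, the third in the order (edgeR adjusted p = 0.00157 and 0.000563). In coculture KPC1 held 0.466, 0.0943, 0.371 and 0.38 CPM, at least 7.27-fold above the floor of 3 counts over its mono-culture libraries, and clone E 0.132, 0, 0.489 and 0.501, at least 6.48-fold above its own floor. Clone H went from 0, 0.167, 0.054 and 0.244 to 0.0604, 0.596, 0.963 and 0.919 CPM (2.44, SE 0.72, adjusted p = 0.00666), a call lost without the libraries numbered 3 (adjusted p = 0.108). V (8 reads against 0, at least 2.68-fold above the floor) and T (12 reads against 2, a ratio of 6.75 with an exact 95% interval of 1.5 to 62.1) were also called, the edgeR adjusted p being 0.0259 and 0.0507, but V was not without the libraries numbered 3 or 4 (0.107 and 0.183) and T not without those numbered 1 or 4 (0.115 and 0.204). K had 6 reads against 1. In N (-0.11, SE 0.43, adjusted p = 0.869) and M (-0.68, SE 0.55, adjusted p = 0.37), which had the most from the start, the change did not pass.

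Psmb9 was lower still and was not tested. Its highest mean was in mono-cultured N, 0.6, 1.78, 0.407 and 0.713 CPM, followed by M (0.0588, 0.193, 0.394 and 0.364) and T (0.117, 0.0537, 0.194 and 0.293), and V, K and KPC1 had no read in mono-culture. In coculture KPC1 held 0.2, 0.0943, 0.0619 and 0.19 CPM, at least 2.91-fold above its floor, and clone H 0.181, 0.119, 0.17 and 0.153, 11 reads against 1 (ratio 9.99, exact 95% interval 1.45 to 430). The N libraries in coculture held 0.54, 0.56, 0.261 and 0.392 CPM and overlapped those in mono-culture.

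Nlrc5, the transactivator of class I genes, was scarce in every line. The highest mono-culture library held 0.652 CPM, in N, and the T libraries held no read. In coculture the V libraries rose from 0.204, 0.256, 0.0624 and 0.258 to 0.735, 1.69, 0.482 and 1.08 CPM (2.29, SE 0.54, adjusted p = 0.000317), the H libraries from 0.315, 0.0833, 0.054 and 0.0611 to 0.785, 1.19, 0.623 and 0.766 (2.64, SE 0.59, adjusted p = 0.000407), and the M libraries, each with 1 read in mono-culture, from 0.0588, 0.0642, 0.0656 and 0.0607 to 0.69, 0.389, 0.432 and 0.149 (2.60, SE 0.75, adjusted p = 0.0062). None of these 3 pairs of groups overlapped. Clone M thus gained Nlrc5 reads while its heavy chains, B2m, Tap1 and Psmb8 did not pass in either direction. K (2.15, SE 0.78, adjusted p = 0.0505) and T (3 reads against 0, adjusted p = 0.0926) were called too. K lost the call without the libraries numbered 1, 3 or 4, and T was lost under several alternatives, DESeq2 among them (adjusted p = 0.172). Clone E had 5 reads against 1 (ratio 6.07, exact 95% interval 0.68 to 287), and the changes in N (0.70, SE 0.58, adjusted p = 0.374) and KPC1 (1.38, SE 0.87, adjusted p = 0.227) did not pass. All 8 estimates were positive, and a difference in response between the lines was not detected at this depth (adjusted p = 0.374).

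**Figure D3:**
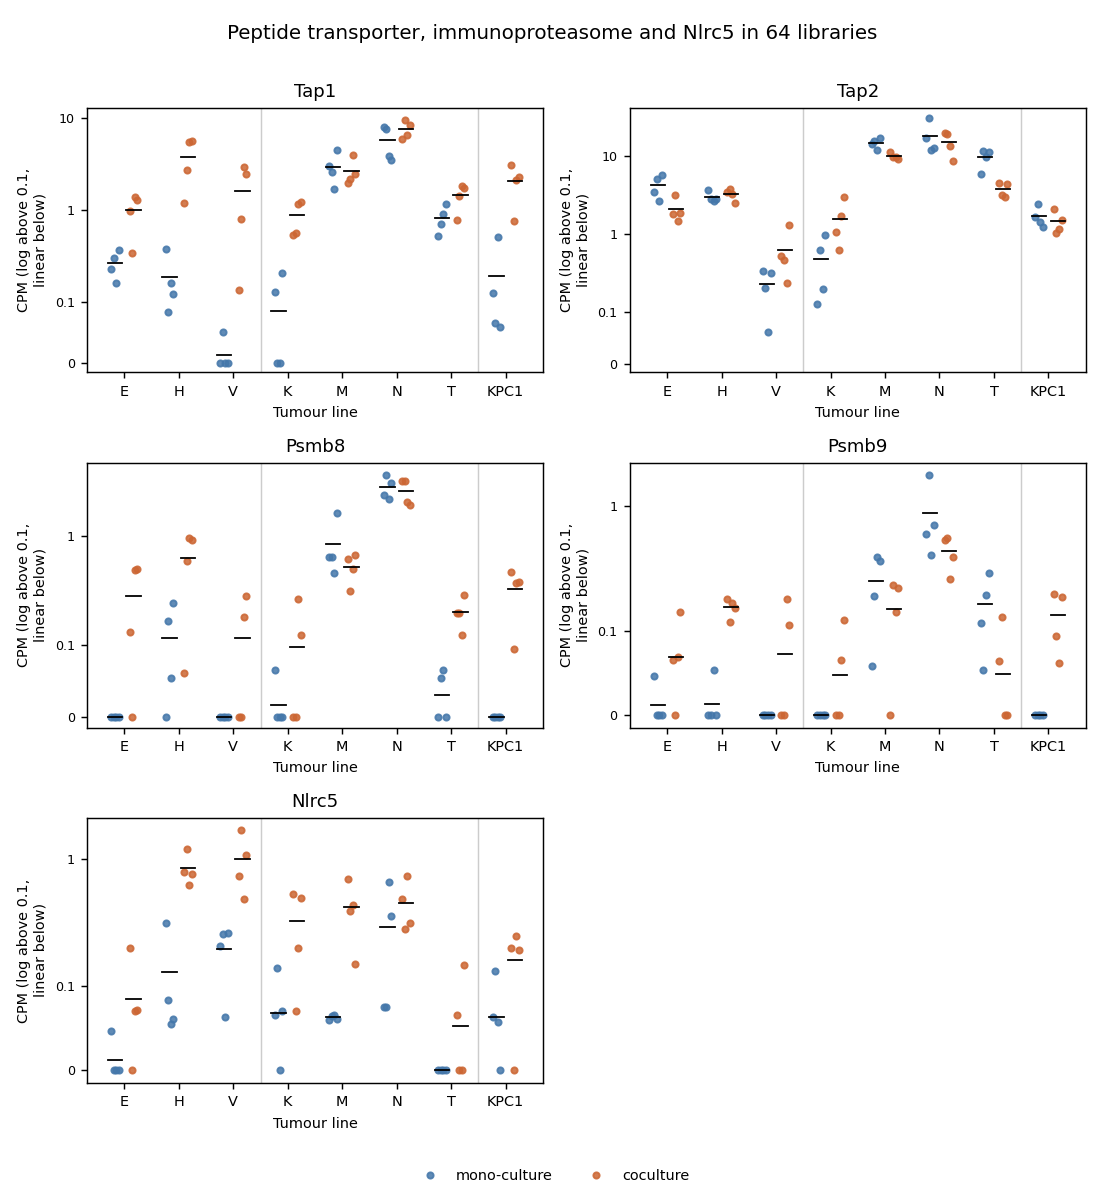
CPM (vertical axis, log above 0.1 and linear below, with 0 shown) of Tap1, Tap2, Psmb8, Psmb9 and Nlrc5 in the 4 libraries of each tumor line (horizontal axis) and culture, blue for mono-culture and orange for coculture, with the mean as a black bar; gray lines part group 1, group 2 and KPC1. Clones M and N hold the most Tap1, Tap2, Psmb8 and Psmb9 in mono-culture, and Tap1 of H, V, K and KPC1 lies higher in every coculture library than in any mono-culture library.

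Cd274 (PD-L1) parted the lines by level and, by edgeR's test, was not called higher in coculture in any line. The K libraries in mono-culture held 47.4, 25.5, 24.8 and 7.79 CPM and the E libraries 17.8, 26.7, 33.4 and 24.9, against 1.02, 1.74, 1.43 and 1.81 in V. The K libraries were spread widely, from 7.79 to 47.4 CPM, and their range took in all 4 of E. The order was K (26.4 ± 16.2 CPM), E (25.7 ± 6.43), M (11 ± 0.501), T (10.3 ± 1.54), N (7.75 ± 2.14), H (2.73 ± 0.536), KPC1 (2.44 ± 0.427) and V (1.5 ± 0.36), and 2 steps passed, from E to M and from N to H (edgeR adjusted p = 0.000343 and 0.000128). By these steps the lines fell into K and E, then M, T and N, then H, KPC1 and V. Within the last set H still differed from V (0.86, edgeR adjusted p = 0.0618), which are not neighbors in the order. Clone K, with the least H2-K1 and H2-D1, stood at the top for Cd274 with E, and clone V was low for the heavy chains and for Cd274.

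In coculture Cd274 fell in E, from the values above to 9.35, 16.9, 8.73 and 9.1 CPM (-1.22, SE 0.29, adjusted p = 0.000315), and in T, from 10.8, 10, 8.27 and 11.9 to 4.5, 6.26, 4.18 and 7.04 (-0.91, SE 0.30, adjusted p = 0.00902). Neither pair of groups overlapped, and both calls held under each alternative in which they were tested. KPC1 went from 2.15, 2.27, 3.08 and 2.28 to 3.19, 4.43, 3.59 and 4.43 CPM (0.67, SE 0.34, adjusted p = 0.131), every coculture library being above every mono-culture one, which did not pass by edgeR and was called higher by DESeq2 (0.68, adjusted p = 0.0927). H (0.35, SE 0.34, adjusted p = 0.441), V (0.11, SE 0.39, adjusted p = 0.824), K (-0.21, SE 0.28, adjusted p = 0.684), M (-0.24, SE 0.29, adjusted p = 0.562) and N (-0.37, SE 0.31, adjusted p = 0.378) did not pass either, and in K the estimate turned to 0.30 without the libraries numbered 1, one of which held the 47.4 CPM. The response differed between lines (adjusted p = 0.00376). The order in coculture was K, E, M, N, T, KPC1, H and V, from 22.8 ± 5.83 to 1.62 ± 0.669 CPM.

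**Figure D4:**
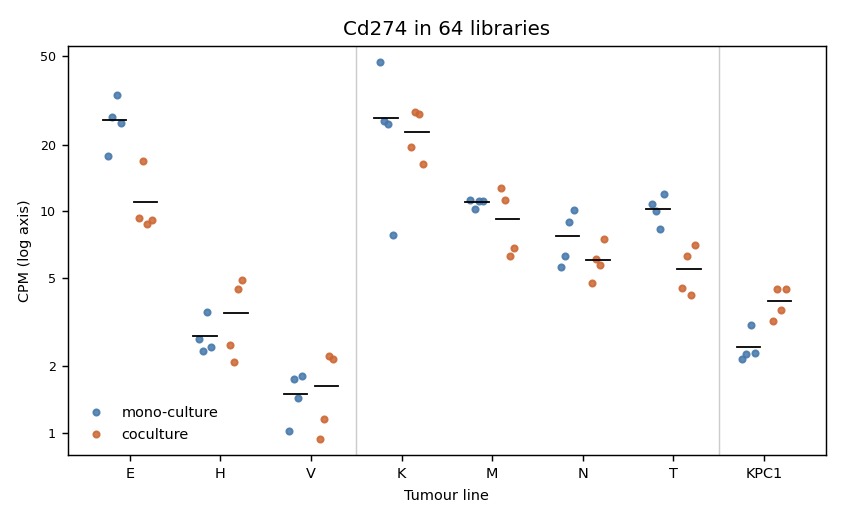
CPM of Cd274 (vertical, log axis) in the 4 libraries of each tumor line (horizontal axis) and culture, blue for mono-culture and orange for coculture, with the mean as a black bar; gray lines part group 1, group 2 and KPC1. Clones K and E are highest in mono-culture, and E and T are lower in coculture without overlap.

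Levels in mono-culture differed between the 8 lines for all 9 genes tested, as they did for 95.1% of all genes, so the size of the differences says more than the calls. Between the highest and the lowest line the means of log2 CPM, taken with a prior count, differed by 7.06 for Tap1, 6.47 for Psmb8, 6.17 for Tap2, 4.16 for H2-K1, 4.07 for Cd274, 2.87 for Nlrc5, 2.38 for H2-D1, 1.49 for B2m and 1.28 for Tapbp, against a median of 1.22 over all genes. For Tap1, Psmb8 and Nlrc5 the lowest line had 1 read or none, so these 3 sizes depend on the prior count. Neighboring lines in a gene's own order differed in 4 of 7 steps for Tap2, in 3 for H2-K1, H2-D1 and Tap1, in 2 for B2m, Psmb8 and Cd274 and in none for Tapbp and Nlrc5, where 18.1% of all steps of all genes passed. The response to coculture differed between lines for 8 of the 9 genes, all but Nlrc5, where 71.3% of all genes were called.

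Over the 16 means of line and culture, H2-K1 and H2-D1 had the highest correlation of any pair of these genes (r = 0.93 on log2 CPM), followed by Tap1 with Psmb8 (0.88), Tap1 with H2-D1 (0.79) and Tap1 with Tap2 (0.75). B2m stood apart from its heavy chains in level, with r = -0.33 to H2-K1 and -0.17 to H2-D1, and Cd274 stayed between -0.43 and 0.31 with the other 8. The genes most like Cd274 over these means were Naip2 (r = 0.972), Naip3 (0.951) and Ppm1h (0.949). Closest to Tap1 were Gstt1 (0.887), Qpct (0.861) and Dhx58 (0.857), the last an interferon-induced RNA sensor, and closest to Tap2 were Oas1c (0.937), Hfe (0.906) and Cnnm2 (0.906), Hfe being itself a class I-like molecule. For H2-K1 they were Npm3-ps1 (0.942), Guca1a (0.932) and Arhgap19 (0.927), for H2-D1 Slc26a11 (0.929) and Qtrt1 (0.925), and for B2m Col4a3bp (0.916), Acap3 (0.909) and Btn1a1 (0.889). Tapbp was nearest to Rapgef1 (0.871), Cpt2 (0.861) and Gm4779 (0.847), Psmb8 to Kcnma1 (0.873), Aldh1b1 (0.862) and BC003331 (0.856), and Nlrc5 to Hebp2 (0.87), 6430548M08Rik (0.835) and Ubash3b (0.805). Each r is a description over 16 means that share lines and libraries, and with so many genes compared, several of these have few reads.

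The rest of the pathway changed in both directions, and the counts of its lists stand beside the 27.1% of all genes called higher and the 27.4% called lower. Of 10 tested class I heavy chains other than H2-K1 and H2-D1, 1 was higher across lines, H2-M3 (0.47, SE 0.14), which presents formylated peptides, and 3 were lower, H2-M5 (-0.54, SE 0.21), H2-T24 (-0.42, SE 0.16) and H2-T22 (-0.38, SE 0.13). None of the 6 further genes of peptide loading and trimming was higher, and 2 were lower, Tapbpl (-0.70, SE 0.18), a relative of tapasin, and Lnpep (-0.62, SE 0.19), a trimming peptidase. Of 9 proteasome genes 4 were higher, led by the activator Psme3 (0.46, SE 0.08) and the constitutive subunits Psmb7 (0.36, SE 0.06) and Psmb5 (0.33, SE 0.08), and 1 was lower, the interferon-inducible activator subunit Psme2 (-0.26, SE 0.11). The medians of these 3 lists were 0.02, 0.01 and 0.08, near the -0.000892 of all genes tested.

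Among 21 genes that regulate class I transcription, 1 was higher, a share below that of all genes. It was the interferon gamma receptor chain Ifngr1 (0.29, SE 0.06). A further 7 were lower, near the share of all genes, led by Ifngr2 (-0.40, SE 0.14), Jak1 (-0.38, SE 0.10) and Irf1 (-0.35, SE 0.13), which carry and carry out the interferon signal. The median of the list was -0.12. The interferon-response genes rose more than any other list but the 3 tested class II genes by median, at 1.16: 11 of 19 tested were higher, led by Ifit1 (3.71, SE 0.62), Ifit3 (3.62, SE 0.54) and Ifi44 (3.56, SE 0.60), and 1 was lower, Irgm1 (-0.41, SE 0.16). Of 3 tested MHC class II genes, H2-DMb1 (2.87, SE 0.55) and the invariant chain Cd74 (1.38, SE 0.37) were higher (median of the 3, 1.38), while the class II chains H2-Aa and H2-Eb1 had no read in any library. H2-DMb1 stood at 0 to 0.295 CPM in mono-culture and at 0.315 to 0.68 in coculture. Like Ifit1 and Ifi44, also at 0 in their lowest mono-cultured line, it passed the filter only with coculture sums. These rises and the medians of both lists were thus set in part by the filter.

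Other ligands that T cells and natural killer cells read were called in both directions, in shares near those of all genes for the checkpoint list. Of 10 checkpoint ligands and partners of Cd274, Pvr (0.67, SE 0.14), Tnfsf9 (0.31, SE 0.10) and Nectin2 (0.30, SE 0.08) were higher and Vtcn1 (-0.76, SE 0.28) and Lgals9 (-0.68, SE 0.18) lower, with a median of 0.07. Of 5 ligands of natural killer cell receptors, Ulbp1 (1.15, SE 0.15) and Raet1d (0.40, SE 0.17) were higher and H60b (-0.20, SE 0.08) lower, with a median of 0.28. Cd274's stabilizing partner Cmtm6 had a value of 0.09, SE 0.07 and was not called.

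**Figure D5:**
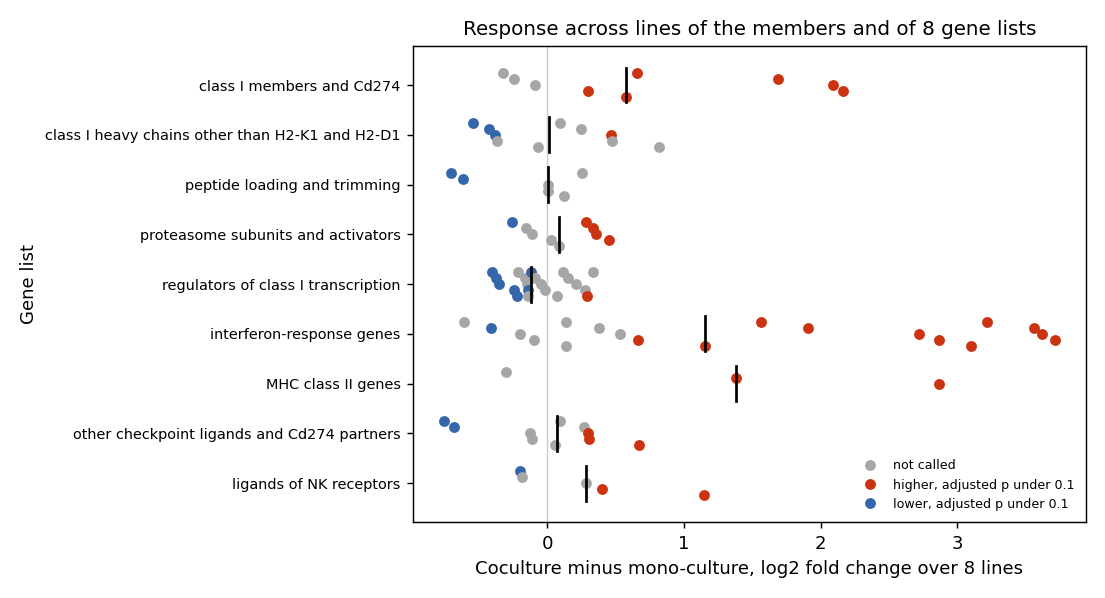
Log2 fold change of coculture over mono-culture across 8 lines (horizontal axis) for each tested gene (points) of the MHC class I genes with Cd274 and of 8 other gene lists (vertical axis), red for genes called higher, blue for lower and gray for not called at an edgeR adjusted p of 0.1; black bars are list medians. The interferon-response list reaches the highest values, and the heavy chain, loading, proteasome and regulator lists have medians between -0.12 and 0.08.

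No difference between the study's metabolic groups was called for these genes, in a test of 3 clones against 4 that called no gene at all in mono-culture and 1 in coculture. In mono-culture the 7 sums of the clones gave Tap1 at 0.156 ± 0.126 CPM in group 1 (SD, n = 3 clones) and 2.42 ± 2.57 in group 2 (n = 4), a log2 difference of -3.94 (SE 1.49, edgeR adjusted p = 0.9). Clone K had less Tap1 (0.0846 CPM) than the highest clone of group 1 (0.26). Psmb9 passed the filter in this test through group 2, with 16, 47 and 11 reads in M, N and T. E and H had 1 read each, and V and K had none. Its difference of -4.74 (SE 1.64, edgeR adjusted p = 0.9) is thus no support for a difference between the groups. For H2-K1 the means were 39.4 ± 26.8 and 62.5 ± 38.1 CPM (edgeR adjusted p = 0.929), for H2-D1 65.6 ± 31.1 and 105 ± 52.3 (0.91) and for Cd274 9.96 ± 13.5 and 13.9 ± 8.68 (0.95). In coculture the difference with the smallest p was that of Tap2, 2.01 ± 1.31 against 7.71 ± 6.25 CPM, a difference of -1.94 (SE 0.85, edgeR adjusted p = 0.591). None of the 8 genes tested in mono-culture or the 9 in coculture was called, where the groups differed in 0% of 14829 genes in mono-culture and in 0.00679% of 14737 in coculture, and at an unadjusted p under 0.05 there were 744 and 1235 genes, 2 and 0 of them among those followed here. The 2 were Tap1 and Psmb9, the second tested because of the group in which it was high. Each group holds one of the lines lowest in heavy chains, V in group 1 and K in group 2.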

How the data were processed

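Tumor cells of 8 mouse PDA lines, in mono-culture or sorted on GFP after coculture with fibroblasts, were sequenced as polyA, strand-specific, paired-end libraries, 4 per group. The submitters' processing notes name mm10, featureCounts and edgeR, without roles or versions. The deposited counts are whole reads per gene, not normalized by the authors, and the deposited RPKM, scaled by the authors to library size and gene length, was used for comparing genes per length and in 2 alternatives. The aligner and the treatment of reads that map to several genes are not given in the sources used here. No other columns of values were left out (0).

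Counts were analyzed in R 4.3.3 with edgeR 4.0.16 (TMM, filterByExpr with a minimum of 10 counts, robust quasi-likelihood test, Benjamini-Hochberg adjustment over all genes, threshold 0.1). A single fit of all 64 libraries in 16 groups gave the responses within lines, the differences between lines and the steps between neighboring lines. Responses across lines used counts summed per line and culture with the line as covariate, and the study's groups were compared on 7 sums. CPM values were computed by edgeR's cpm after TMM. Alternatives were RLE size factors, no filter, a replicate block, the sample sheet, sheet A alone, left-out libraries and lines, a threshold of 0.05, DESeq2 1.42.0, and limma 3.58.1 on log2(RPKM + 1) and log2(RPKM + 0.1). Code was tested on simulated data with known changes. Intervals and floors (3 counts) cover counting error only, since PCR copies were not marked.

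The genes, the pathway lists and the markers were chosen with earlier results of these data known. Named were all 10 genes, up to 3 called genes in each direction per list, by size, and the 3 genes most correlated with each gene over the 16 means. An allele of the genotype, a marker gene and a correlated gene that these choices would name are not reported here.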

Additional observations from a re-analysis of the deposited data

Results flagged for a closer look

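The response to coculture differed between the 8 lines, by edgeR's test of line and culture together, for H2-K1 (adjusted p = 4.67e-06), H2-D1 (7.24e-09), B2m (0.000571), Tap1 (4.72e-07), Tap2 (7.16e-05), Tapbp (0.000422), Psmb8 (0.000122) and Cd274 (0.00376), where 71.3% of all genes did. The fits within each line and the plot of changes by line give the directions: Tap2 and Cd274 fell in E and T, and H2-K1 and H2-D1 rose most in V and H.

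In 14 of the 160 groups of 4 libraries (8.75%), 1 library stood apart from the other 3, its gap to the nearest being above Dixon's 95% critical share of the range of the group (which chance passes in about 1 group of 20). Library 2 of clone E in coculture stood apart for B2m (584 CPM, ratio 0.916) and Cd274 (16.9 CPM, 0.924), both high. Library 2 of clone M in mono-culture did so for B2m (1079 CPM, 0.841) and Cd274 (10.2 CPM, 0.88), the first high and the second low. Library 3 of KPC1 in mono-culture was high for Tap1 (0.512 CPM, 0.851) and Cd274 (3.08 CPM, 0.857). Single high libraries were also seen in mono-culture for Tap2 in H (3.65 CPM, 0.864), Psmb8 in M (1.64 CPM, 0.841) and Nlrc5 in H (0.315 CPM, 0.888). The other 5 had a ratio of 1 because 1 library held a single read and the other 3 none: Tap1 in V, Psmb8 in K, Psmb9 in E and in H, and Nlrc5 in E, all in mono-culture.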

How the results depend on the processing

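Of 1419 values of the 10 genes recomputed under an alternative, 1283 kept their direction and side of the threshold, 78 lost the call, 14 gained it and 44 turned in sign, none of them called in the fit as reported. On sheet A alone 22 pairs of gene and line were higher instead of 34, with fewer libraries and no clone K. Leaving out a replicate number gave 26 to 31 higher and 6 to 7 lower. The replicate numbers were not taken to pair the cultures (correlation of deviations -0.07 to 0.29, over 0.1 in 18 of 32 pairs, 21 of 32 coculture libraries nearest their own number). With the replicate block, 34 pairs were higher and 8 lower within lines. With all 64 libraries as samples, the line and the replicate block, H2-K1 (0.55), H2-D1 (0.65), B2m (0.30) and Tap1 (1.70) were higher, and Tapbp (-0.32) and Cd274 (-0.28) were called lower, Psmb8 and Nlrc5 not being tested.

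Across lines, 4 genes passed at 0.05, B2m (0.30) and Psmb8 (1.69) no longer. Psmb8 (1.74) was also lost without a filter on low counts. Without KPC1, B2m (0.28) and Psmb8 (1.40) were lost and Tapbp (-0.38) was called lower, as it was by DESeq2 (-0.32), which called 7 genes. Leaving out 1 line or 1 replicate number gave 3 to 5 called genes, which without H, KPC1 or the libraries numbered 3 or 4 included Tapbp as lower, with B2m between 0.25 and 0.38, Psmb8 between 1.40 and 1.64, Tapbp between -0.41 and -0.20 and Tap2 between -0.33 and 0.10. The causes were not tested.

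Values that turned in sign, with no call on either side, were, within lines, Tapbp in K (0.0086 with the block, 0.0155 with the sheet, 0.0077 without the N mono-culture and KPC1 coculture libraries numbered 2, an alternative chosen after seeing the data, 0.0599 and 0.0612 in the RPKM fits), N (0.24 without those libraries) and KPC1 (-0.0222 and -0.0236 in the RPKM fits), Tap2 in N (0.13 without those libraries) and KPC1 (0.18 on sheet A), Psmb8 in N (0.0265 without those libraries), and Cd274 in K (0.0137 and 0.0568 on RPKM) and V (-0.0092 on RPKM + 0.1). Leaving out a replicate number gave ranges across 0 for Tapbp in K (-0.13 to 0.0747), N (-0.35 to 0.17) and KPC1 (-0.15 to 0.29), Tap1 in M (-0.62 to 0.16), Tap2 in N (-0.42 to 0.0201) and KPC1 (-0.43 to 0.17), Psmb8 in N (-0.31 to 0.0451) and Cd274 in K (-0.38 to 0.30) and V (-0.0934 to 0.36). Between the groups in mono-culture, Tapbp turned to -0.0651 on sheet A, and leaving out 1 clone gave -0.18 to 0.33 for Tapbp and -2.69 to 0.0452 for Cd274. In coculture that range was -0.67 to 0.0555 for H2-K1, -0.35 to 0.37 for H2-D1, -0.13 to 0.34 for B2m, -1.21 to 0.42 for Tap1, -0.18 to 0.18 for Tapbp and -2.10 to 0.38 for Psmb8, and B2m also turned in a fit without 1 replicate number (-0.0066).

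Depth limits Psmb8, Psmb9, Nlrc5 and, outside M, N and T, mono-culture Tap1 most.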
